A study of Mus musculus with 24 samples.

Results

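The 38 genes described here encode proteins of fatty acid oxidation and known targets of the peroxisome proliferator-activated receptors (PPARs). They were chosen by symbol, and all 38 of 38 listed symbols were found among the 15323 genes of the deposited table through the GENCODE annotation of its Ensembl identifiers. They comprise 2 receptors (Ppara, Ppard), 4 genes of uptake and activation (Cd36, Slc22a5, Acsl1, Mlycd), 4 of the carnitine shuttle (Cpt1a, Cpt1b, Slc25a20, Cpt2), 11 of mitochondrial beta-oxidation (Acadvl, Acadl, Acadm, Acads, Hadha, Hadhb, Hadh, Acaa2, Eci1, Eci2, Decr1) and 3 of electron transfer (Etfa, Etfb, Etfdh). The others are 5 peroxisomal genes (Acaa1a, Acaa1b, Ehhadh, Pex11a, Abcd2), 2 of ketone body metabolism (Acat1, Bdh1), 4 thioesterase and uncoupling protein genes (Acot1, Acot2, Ucp2, Ucp3) and 3 further PPAR targets (Angptl4, Plin5, Vnn1). RNA was sequenced from heart left ventricle and the median lobe of the liver. The mice combined the nuclear genome of one strain with the mitochondrial DNA (mtDNA) of another (conplastic mice, made by 10 generations of backcrossing), or were of the parental strains. Groups are named nuclear genome:mtDNA. NZB:C57 mice carried an NZB nucleus with C57BL/6 mtDNA and NZB:NZB mice were NZB throughout. BL/6J:NZB mice carried a C57BL/6 nucleus with NZB mtDNA, and BL/6J:C57 mice were C57BL/6 throughout. All animals were males aged 10 weeks, and no transgene, other allele or agent is named for any group. Each of the 8 groups (4 genotypes, 2 tissues) had 3 libraries of poly-A RNA, each from a pool of 4 animals. Thus 12 males stood behind each genotype and the values of single animals cannot be seen. The sample titles call the pools of the BL/6J nucleus "mix" and those of the NZB nucleus "rep", and a difference in handling, if there was one, would coincide with the nuclear genome.

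Fatty acids enter cells with the help of transporters such as CD36, are joined to coenzyme A, and cross the mitochondrial membranes as carnitine esters through CPT1, the carnitine-acylcarnitine carrier (Slc25a20) and CPT2. Inside, chain-length-specific acyl-CoA dehydrogenases, the trifunctional protein (Hadha, Hadhb) and thiolases shorten the chain, and electron transfer flavoprotein passes electrons on to the respiratory chain. Very long chains are first shortened in peroxisomes. PPARα, a nuclear receptor activated by fatty acids, drives many of these genes in liver and heart, where the heart uses the pathway for its own energy and the liver also for making ketone bodies.

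The libraries held 3714278 to 12949956 reads in hearts and 7294525 to 34974268 reads in livers, recovered from the authors' normalised values, and all values below are those normalised values unless a length is named. Pools, not animals, are the replicates, and p-values measure the spread between pools. The 3 NZB:C57 heart libraries stood apart from the other 9 heart libraries. Their 20 most abundant genes held 33.4% to 34.1% of the reads, against 11.5% to 14.5% in the other hearts. The summed values of 13 cardiomyocyte markers were 297600 to 304730 in NZB:C57 hearts, 37511 to 38854 in NZB:NZB hearts, 49845 to 54942 in BL/6J:NZB hearts and 52426 to 55885 in BL/6J:C57 hearts. Heart counts of the 38 genes that rest on these libraries are given with and without scaling to library totals. They stand beside NZB:NZB against BL/6J:NZB hearts, a comparison that these libraries do not enter as samples compared. Other pathway genes and cell type markers are given under the authors' normalisation only. Cardiomyocyte markers were also present in livers of the NZB nucleus, with sums of 0.862 to 185 in NZB:C57 livers and 59.5 to 199 in NZB:NZB livers, against 0.945 to 1.22 in BL/6J:NZB livers and 0.438 to 0.617 in BL/6J:C57 livers. Myh6, Myl2, Mb, Nppa and Ckm were at 0 in BL/6J:NZB livers. The 19 hepatocyte markers summed to 65.8 to 147 in NZB:C57 hearts, 114 to 154 in NZB:NZB hearts, 35.0 to 257 in BL/6J:NZB hearts and 20.5 to 28.4 in BL/6J:C57 hearts, against at least 165440 in every liver. Tests were made with limma on log2(value + 1) across all genes, with Benjamini-Hochberg adjustment and a threshold of 0.05, so that fold changes of genes with low values are understated. The RNA is of whole tissue, in which fewer cells of a type and less RNA per cell cannot be told apart. Reads of genes that share sequence may have been divided between them. Shared are 79.7% of the 31-base words of Cpt1b (with the overlapping gene Gm44502), 49.9% of those of Etfb (mostly with Gm45233), 40% of Acaa1b (with Acaa1a), 37.8% of Slc22a5 (mostly with Slc22a21), 37.3% of Acot2 (mostly with Acot1) and 23.3% of Hadhb. Acadvl overlaps Dvl2 on the other strand over 42.9% of its exonic bases.

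Cd36, Cpt1b and Ucp3 were far higher in heart and Acaa1b, Ehhadh and Vnn1 far higher in liver, in all 4 genotypes. In hearts against livers of NZB:C57 mice, 20 of the 38 genes were higher and 15 lower, where 79.5% of 14968 genes tested were called (39.6% higher, 39.9% lower). There were 17 higher and 16 lower in NZB:NZB mice (75.1% of all genes called, 37.8% higher and 37.4% lower). There were 18 higher and 14 lower in BL/6J:NZB mice (75.9% of all genes, 37.5% higher and 38.4% lower). In BL/6J:C57 mice 19 were higher and 13 lower (77.0% of all genes, 37.3% higher and 39.8% lower). The share of the 38 called was near that of all genes. Hearts and livers of a genotype may come from the same animals, and the fit took them as independent. Of these genes, 16 were higher in heart in all 4 genotypes, among them Cd36, Cpt1b, 7 of the 11 genes of mitochondrial beta-oxidation and all 3 of electron transfer. Lower in heart in all 4 were 12, among them Ppara, Cpt1a, 2 genes of mitochondrial beta-oxidation (Acaa2 and Eci2) and 4 of the 5 peroxisomal genes. Scaling to library totals in place of the authors' normalisation put the median of all genes at 0.31 on the log2 scale in NZB:C57 mice. The scaling put it at 0.73 in NZB:NZB and BL/6J:NZB mice and at 0.74 in BL/6J:C57 mice. It gave 23 higher and 13 lower of the 38 genes in NZB:C57, 23 higher and 12 lower in NZB:NZB, 25 higher and 9 lower in BL/6J:NZB, and 28 higher and 8 lower in BL/6J:C57 mice. With that scaling the difference turned positive for Acaa2 and Eci2 in both BL/6J genotypes, Ppara and Acsl1 in BL/6J:C57, Eci2, Mlycd and Acat1 in NZB:NZB, and Acat1 and Bdh1 in NZB:C57 mice.

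Cd36, the fatty acid translocase of the plasma membrane (ENSMUSG00000002944, GRCm38 chr5:17781690-17888801, minus strand), had 2485, 2449 and 2544 in the 3 NZB:C57 hearts, 1148, 944 and 1069 in NZB:NZB hearts, 1514, 1482 and 1529 in BL/6J:NZB hearts and 1534, 1616 and 1598 in BL/6J:C57 hearts. Its liver values were 14.5, 13.4 and 13.8 in NZB:C57, 46.0, 39.2 and 41.3 in NZB:NZB, 43.8, 33.0 and 33.5 in BL/6J:NZB and 27.0, 30.0 and 31.6 in BL/6J:C57 mice. Every heart was above every liver, and under the authors' normalisation NZB:C57 mice had the highest hearts and the lowest livers. With library totals Cd36 was not called in NZB:C57 against BL/6J:C57 hearts (0.07 on the log2 scale). Under the authors' normalisation the log2 difference of heart over liver was 7.39 in NZB:C57, 4.61 in NZB:NZB, 5.33 in BL/6J:NZB and 5.70 in BL/6J:C57 mice. Per kilobase of exon, Cd36 was first among the 38 genes in NZB:C57 hearts with 694 ± 13.4 (SD, n = 3). Acaa2, the mitochondrial 3-ketoacyl-CoA thiolase, had 528 ± 33.2 and Acadl, the long-chain acyl-CoA dehydrogenase, 495 ± 10.0 in BL/6J:C57 hearts. In BL/6J:C57 livers the highest levels per kilobase were those of Acaa1b, a peroxisomal thiolase, at 717 ± 169.8, and of Acaa2 at 717 ± 72.2. These means differed by less than their spread between pools.

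CPT1 controls entry of long-chain acyl groups into mitochondria, and its liver and muscle forms, Cpt1a and Cpt1b, changed places between the tissues. Per kilobase, Cpt1a made up 1.98% ± 0.355 of the 2 transcripts in NZB:C57 hearts, 4.27% ± 0.332 in NZB:NZB, 4.26% ± 0.0526 in BL/6J:NZB and 4.96% ± 0.786 in BL/6J:C57 hearts (SD, n = 3 pools). It made up between 97.1% and 98.7% on average in the liver groups. Both forms were thus detected in both tissues in unequal measure, although NZB:C57 liver pool 3 held 0 reads of Cpt1b. NZB:C57 hearts had the lowest share of Cpt1a. Cpt1a itself averaged 33.2 there and 33.9 in NZB:NZB hearts, whereas Cpt1b averaged 725 and 336. Of the peroxisomal thiolase pair, Acaa1b had 0.17, 0.743 and 1.55 in NZB:C57 hearts, 0.397, 1.04 and 0.507 in NZB:NZB hearts, 0.447, 0.635 and 1.72 in BL/6J:NZB hearts and 0.273, 0 and 0.37 in BL/6J:C57 hearts, while no liver was below 569. Acaa1a was 65.6 ± 6.18 in hearts and 259.8 ± 22.2 in livers of BL/6J:C57 mice (SD, n = 3). Acaa1b was near 0 in every heart, and because of shared sequence its split from Acaa1a is uncertain. Ehhadh, the peroxisomal bifunctional enzyme, averaged 11.2 ± 1.43 in hearts and 381 ± 21.7 in livers of NZB:C57 mice, and 16.9 ± 3.43 in hearts and 507 ± 55.4 in livers of BL/6J:C57 mice (SD, n = 3).

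Among the uncoupling proteins, Ucp3, the form of muscle and brown fat (ENSMUSG00000032942, GRCm38 chr7:100472990-100486432, plus strand), had 71.7, 53.4 and 53.0 in NZB:C57 hearts, 13.3, 10.4 and 12 in NZB:NZB hearts, 22.5, 43.2 and 52.7 in BL/6J:NZB hearts and 42.4, 45.0 and 85.5 in BL/6J:C57 hearts. Livers of BL/6J:C57 mice held 0 reads of Ucp3 in all 3 pools, against 1211 reads in their hearts. This makes hearts at least 968-fold higher when the liver is set at a floor of 3 reads over the group (counting error only). Vnn1, the pantetheinase that is a PPARα target in liver, was the reverse, with 0.182, 0 and 0 in BL/6J:C57 hearts and 46.9, 41.6 and 59.3 in BL/6J:C57 livers. Of the acyl-CoA thioesterases, mitochondrial Acot2 was the heart form and cytosolic Acot1 the liver form. Acot1 made up 9.65% to 17.4% of the pair per kilobase in the heart groups and 74.9% to 83.7% in the liver groups, on average. Ppara was lower in heart than in liver in all 4 genotypes, by a log2 difference of -1.45 in NZB:C57, -2.55 in NZB:NZB, -2.08 in BL/6J:NZB and -0.66 in BL/6J:C57 mice. In the last of these livers and hearts overlapped (39.0, 28.8 and 35.1 in hearts, 28.0, 58.1 and 98.2 in livers), and the difference became 0.29 with library totals. Plin5, a lipid droplet protein of oxidative tissues, was higher in heart by 1.25 in NZB:C57, 1.19 in NZB:NZB, 1.2 in BL/6J:NZB and 1.29 in BL/6J:C57 mice on the log2 scale.

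**Figure D1:**
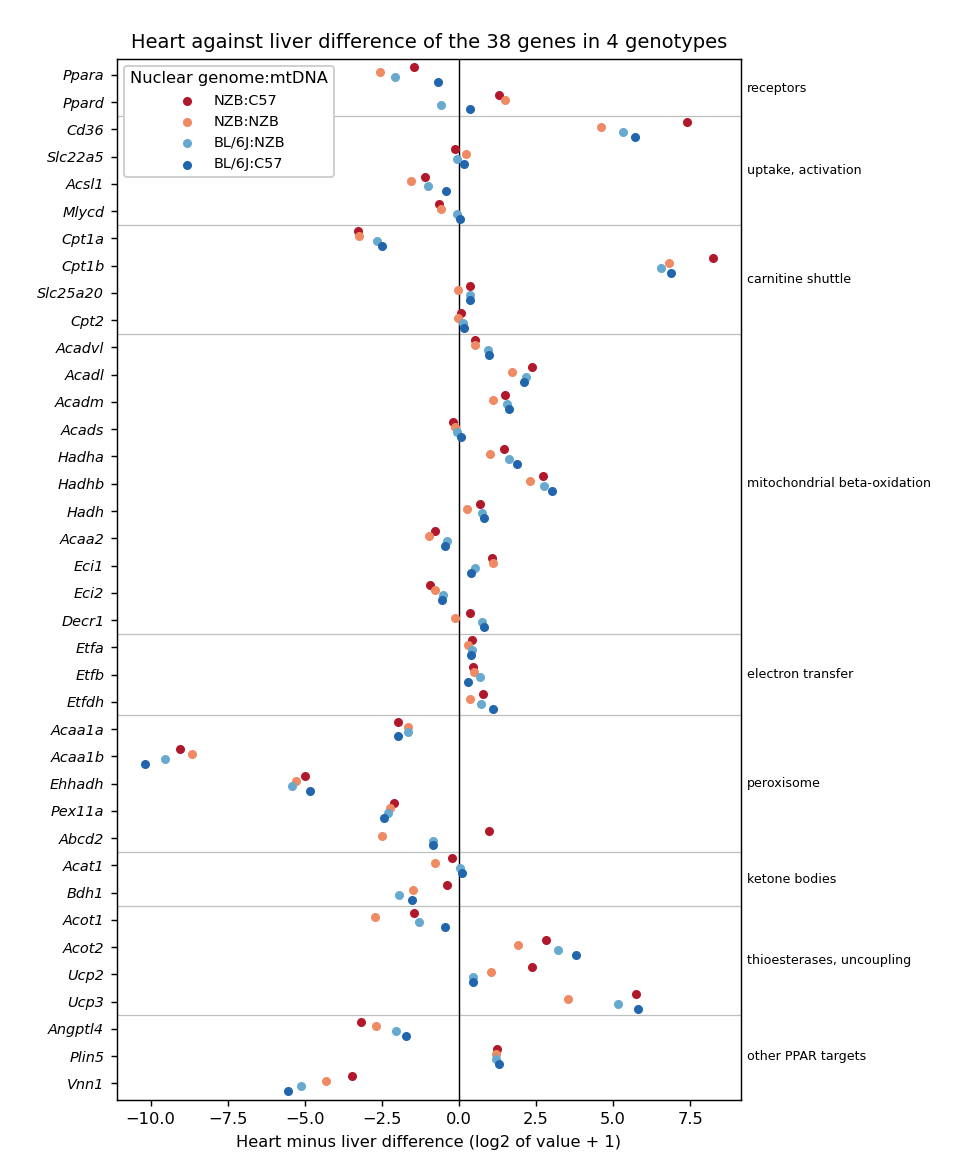
Difference of heart over liver on the log2(value + 1) scale (x axis) for each of the 38 genes (y axis, grouped by role), with 1 point per genotype from the limma fit of all 24 libraries. Cd36, Cpt1b and Ucp3 lie to the right and Acaa1b, Ehhadh and Vnn1 to the left in all 4 genotypes. Fitted differences of Ucp3, Acaa1b and Vnn1 depend on the added 1 because one tissue is near 0. With library totals the points shift right, and the median of all genes is at 0.31 to 0.74. The shift turns positive Acaa2 and Eci2 in both BL/6J genotypes, Ppara and Acsl1 in BL/6J:C57, Eci2, Mlycd and Acat1 in NZB:NZB, and Acat1 and Bdh1 in NZB:C57 mice.

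In heart most of the 38 genes were lower with the NZB than with the BL/6J nuclear genome. With NZB mtDNA in both groups, 28 of the 37 genes tested were lower and 4 higher in NZB:NZB hearts than in BL/6J:NZB hearts, where 29.1% of 13803 genes were called (13.6% lower, 15.5% higher). In all 32 the pools of the 2 groups did not overlap, a count that was not made over all genes and adds no support beyond the calls. The median log2 fold change was -0.40 over the 37 genes and 0.02 over all genes tested. All 11 genes of mitochondrial beta-oxidation and all 3 of electron transfer were lower, with log2 fold changes of -1.0 to -0.26 and -0.57 to -0.39. Eci1 was the weakest of these, its call ended by library totals (-0.18) and without BL/6J:NZB heart pool 3 (-0.19) or NZB:NZB heart pool 2 or 3 (-0.25 and -0.21). The call of Acads was lost without NZB:NZB heart pool 3 (-0.23). With library totals, under which the median of all genes was at 0.11, 25 of the 37 genes were lower and 4 higher. With the NZB:C57 libraries left out of the fit, 29 were lower and 4 higher.

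Decr1, the 2,4-dienoyl-CoA reductase needed for unsaturated fatty acids (ENSMUSG00000028223, GRCm38 chr4:15917240-15945507, minus strand), had 269.6, 212 and 231 in NZB:NZB hearts and 457, 461 and 506 in BL/6J:NZB hearts. For Decr1 the log2 fold change was -1.0 ± 0.08 (SE, limma adjusted p = 6.2e-08). Slc25a20, the carnitine-acylcarnitine carrier, had 95.1, 75.9 and 91.1 in NZB:NZB hearts and 153, 165 and 161 in BL/6J:NZB hearts. Slc25a20 differed by -0.87 ± 0.08 on the log2 scale (SE, limma adjusted p = 2.4e-07). All NZB:NZB pools of both genes lay well under the lowest BL/6J:NZB pool. Acaa2 had 505, 443 and 452 in NZB:NZB hearts against 722, 776 and 891 in BL/6J:NZB hearts. For Acaa2 the log2 fold change was -0.77 ± 0.08 (SE, limma adjusted p = 2.1e-06). Hadha, the alpha subunit of the trifunctional protein, had 849.6, 837 and 836 in NZB:NZB hearts and 1171, 1228 and 1192 in BL/6J:NZB hearts. Hadha differed by -0.51 ± 0.06 on the log2 scale (SE, limma adjusted p = 1.2e-05). Its pools were tightly grouped in each genotype. Mlycd, which degrades malonyl-CoA, the inhibitor of CPT1, had 60.8, 64.9 and 64.1 in NZB:NZB hearts and 93.7, 107 and 115 in BL/6J:NZB hearts. For Mlycd the log2 fold change was -0.72 ± 0.09 (SE, limma adjusted p = 9.3e-06). Acadm, the medium-chain dehydrogenase, had 899, 772 and 813 in NZB:NZB hearts and 1061, 1118 and 1116 in BL/6J:NZB hearts. Acadm differed by -0.41 ± 0.07 on the log2 scale (SE, limma adjusted p = 0.00023).

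The thioesterases were lower as well. Acot1 had 5.96, 6.26 and 4.23 in NZB:NZB hearts and 14.6, 20 and 23.2 in BL/6J:NZB hearts. For Acot1 the log2 fold change was -1.64 ± 0.19 (SE, limma adjusted p = 6.4e-06). Acot2 had 30.9, 26.3 and 29.6 in NZB:NZB hearts and 52.0, 60.7 and 60.0 in BL/6J:NZB hearts. For Acot2 the log2 fold change was -0.97 ± 0.09 (SE, limma adjusted p = 5.5e-07). Every NZB:NZB pool was under every BL/6J:NZB pool in both, and the pair shares sequence. Pex11a, a protein of peroxisome division, had 12.4, 11.7 and 9.13 in NZB:NZB hearts and 22.1, 22.9 and 21.4 in BL/6J:NZB hearts. Pex11a differed by -0.95 ± 0.12 on the log2 scale (SE, limma adjusted p = 1.2e-05). Plin5 had 76.8, 71.7 and 72.7 in NZB:NZB hearts and 108, 115 and 127 in BL/6J:NZB hearts. For Plin5 the log2 fold change was -0.66 ± 0.08 (SE, limma adjusted p = 1.2e-05). Ucp3, whose lowest BL/6J:NZB pool was still above every NZB:NZB pool, was lower at a log2 fold change of -1.57 ± 0.26 (SE; adjusted p = 0.00021 with limma) and Angptl4, an inhibitor of lipoprotein lipase, at -0.97 ± 0.23 (adjusted p = 0.005 with limma).

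Bdh1, the 3-hydroxybutyrate dehydrogenase that acts in ketone body synthesis in liver and in their use elsewhere (ENSMUSG00000046598, GRCm38 chr16:31422280-31458901, plus strand), went the other way. It had 175, 177 and 174 in NZB:NZB hearts and 86.3, 62.9 and 52.2 in BL/6J:NZB hearts (log2 fold change 1.40 ± 0.12 SE, limma adjusted p = 1.7e-07), with no overlap. Also higher was Abcd2, a peroxisomal transporter of very long-chain acyl-CoA (ENSMUSG00000055782, GRCm38 chr15:91145871-91191799, minus strand), with 5.08, 6.61 and 5.41 in NZB:NZB hearts and 4.32, 3.49 and 2.94 in BL/6J:NZB hearts (log2 fold change 0.55 ± 0.15 SE, limma adjusted p = 0.012). Ucp2 was higher too, with 62.8, 76.6 and 61.9 in NZB:NZB hearts and 40.2, 42.6 and 58.0 in BL/6J:NZB hearts. Ucp2 differed by 0.52 ± 0.14 on the log2 scale (SE, limma adjusted p = 0.011). The call of Abcd2 was lost without BL/6J:NZB heart pool 3 (0.45) or NZB:NZB heart pool 2 (0.46), and that of Ucp2 without BL/6J:NZB heart pool 1 or 2 (0.42 and 0.46) or NZB:NZB heart pool 2 (0.42). Ppard was the fourth, at a log2 fold change of 0.45 ± 0.11 (SE; limma adjusted p = 0.0063), and Ppara, at 0.21 ± 0.19, did not pass (limma adjusted p = 0.43). The remaining genes not called were Cpt1a (adjusted p = 0.054 with limma), Slc22a5 (0.057), Ehhadh (0.21) and Acaa1b (0.67), the last at only 3 to 24 reads in these hearts.

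With C57 mtDNA in both groups, 26 of the 37 genes were lower and 5 higher in NZB:C57 hearts than in BL/6J:C57 hearts, where 35.2% of genes were called (13.1% lower, 22.1% higher). The median was -0.41, against 0.01 over all genes. These 2 comparisons share no library. In both, the same 23 genes were lower, which is 82.1% of the 28 lower with NZB mtDNA and 88.5% of the 26 lower with C57 mtDNA. The same overlap was not counted over all genes, and both comparisons set the NZB nucleus against the BL/6J nucleus. Bdh1, Abcd2 and Ucp2 were higher in both. Decr1 had 281, 271 and 289 in NZB:C57 hearts and 465, 456 and 496 in BL/6J:C57 hearts. For Decr1 the log2 fold change was -0.75 ± 0.08 (SE, limma adjusted p = 8.4e-07). Slc25a20 had 103, 100 and 104 in NZB:C57 hearts and 179, 169 and 174 in BL/6J:C57 hearts. Slc25a20 differed by -0.76 ± 0.08 on the log2 scale (SE, limma adjusted p = 4.8e-07). Both genes were at about the same level in the 2 BL/6J groups, and the NZB pools lay below them whichever mtDNA they carried. Mlycd had 67.3, 70.2 and 59.2 in NZB:C57 hearts and 123, 108 and 123 in BL/6J:C57 hearts. For Mlycd the log2 fold change was -0.84 ± 0.09 (SE, limma adjusted p = 5.9e-07). Plin5 had 83.8, 79.9 and 70.2 in NZB:C57 hearts and 136, 122 and 129 in BL/6J:C57 hearts. Plin5 differed by -0.72 ± 0.08 on the log2 scale (SE, limma adjusted p = 1.5e-06). Acaa2 had 496, 514 and 487 in NZB:C57 hearts and 823, 743 and 837 in BL/6J:C57 hearts. Acaa2 differed by -0.68 ± 0.08 on the log2 scale (SE, limma adjusted p = 3.3e-06). Angptl4 had 5.69, 7.10 and 8.61 in NZB:C57 hearts and 22.6, 20.5 and 37.0 in BL/6J:C57 hearts. For Angptl4 the log2 fold change was -1.74 ± 0.23 (SE, limma adjusted p = 1.2e-05). In none of these 6 did the groups overlap.

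Bdh1 had 271, 266 and 278 in NZB:C57 hearts and 91.8, 77.1 and 85.4 in BL/6J:C57 hearts. For Bdh1 the log2 fold change was 1.67 ± 0.12 (SE, limma adjusted p = 6.5e-09). Abcd2 had 15.1, 16.7 and 15.7 in NZB:C57 hearts and 3.46, 3.81 and 4.62 in BL/6J:C57 hearts. Abcd2 differed by 1.77 ± 0.15 on the log2 scale (SE, limma adjusted p = 5.4e-08). Both were thus lowest in the 2 BL/6J groups and highest in NZB:C57 hearts, although with library totals Bdh1 was no higher in NZB:C57 than in NZB:NZB hearts (-0.07). Cd36 and Cpt1b differed in sign between the 2 nuclear comparisons. Cd36 was higher in NZB:C57 than in BL/6J:C57 hearts (log2 fold change 0.66 ± 0.08 SE, limma adjusted p = 2e-06) and lower in NZB:NZB than in BL/6J:NZB hearts. For Cd36 the log2 fold change was -0.52 ± 0.08 (SE, limma adjusted p = 6.1e-05). Cpt1b (ENSMUSG00000078937, GRCm38 chr15:89416405-89425863, minus strand) had 725, 719 and 731 in NZB:C57 hearts and 490.3, 447 and 462 in BL/6J:C57 hearts (log2 fold change 0.64 ± 0.08 SE, limma adjusted p = 3.9e-06), but 345, 352 and 312 in NZB:NZB hearts and 381, 449 and 466 in BL/6J:NZB hearts. Cpt1b differed by -0.36 ± 0.08 on the log2 scale (SE, limma adjusted p = 0.0023). The higher values rest on the NZB:C57 libraries that stand apart. With library totals, under which the median of all genes was at -0.53, 30 of the 37 genes were lower and 3 higher. Cd36 was then at 0.07 and Cpt1b at 0.05, neither of them called. In NZB:C57 against BL/6J:C57 hearts all 13 cardiomyocyte markers, 12 of 13 fibroblast, 12 of 13 endothelial, 9 of 9 macrophage and 11 of 18 hepatocyte markers tested were higher. In NZB:NZB against BL/6J:NZB hearts 7 of 13 cardiomyocyte markers were lower and 1 higher, and 10 of 13 fibroblast markers were higher and 1 lower (sums of 3074 to 3523 in NZB:NZB and 2052 to 2172 in BL/6J:NZB hearts). There, 5 of 7 adipocyte markers were higher and 1 lower (sums of 371 to 406 in NZB:NZB and 400 to 562 in BL/6J:NZB hearts). Macrophage markers were 7 higher and 0 lower of 9 there. The part of these lists in the result was not tested.

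**Figure D2:**
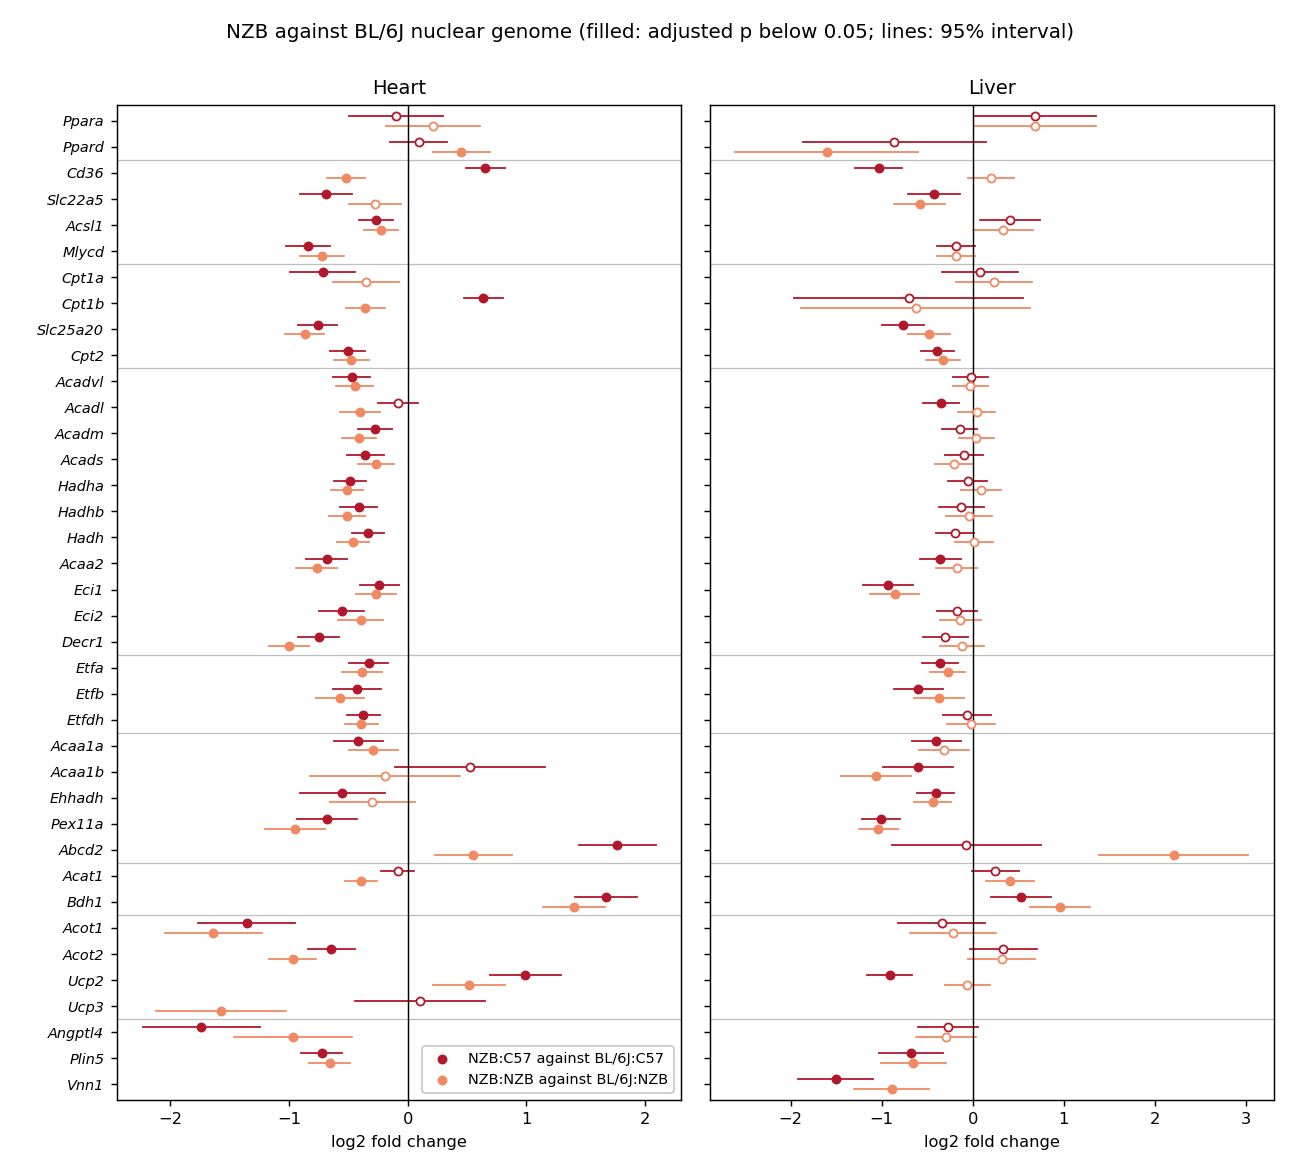
log2 fold change of the NZB over the BL/6J nuclear genome (x axis) for each of the 38 genes (y axis), in heart (left) and liver (right), with C57 mtDNA in dark red and NZB mtDNA in orange. Lines give the 95% interval of the limma fit and filled points passed an adjusted p of 0.05. In heart most genes lie left of 0 in both comparisons, Bdh1, Abcd2 and Ucp2 lie right of 0 in both, and Cd36 and Cpt1b lie on opposite sides, although with library totals both were near 0 with C57 mtDNA.

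**Figure D3:**
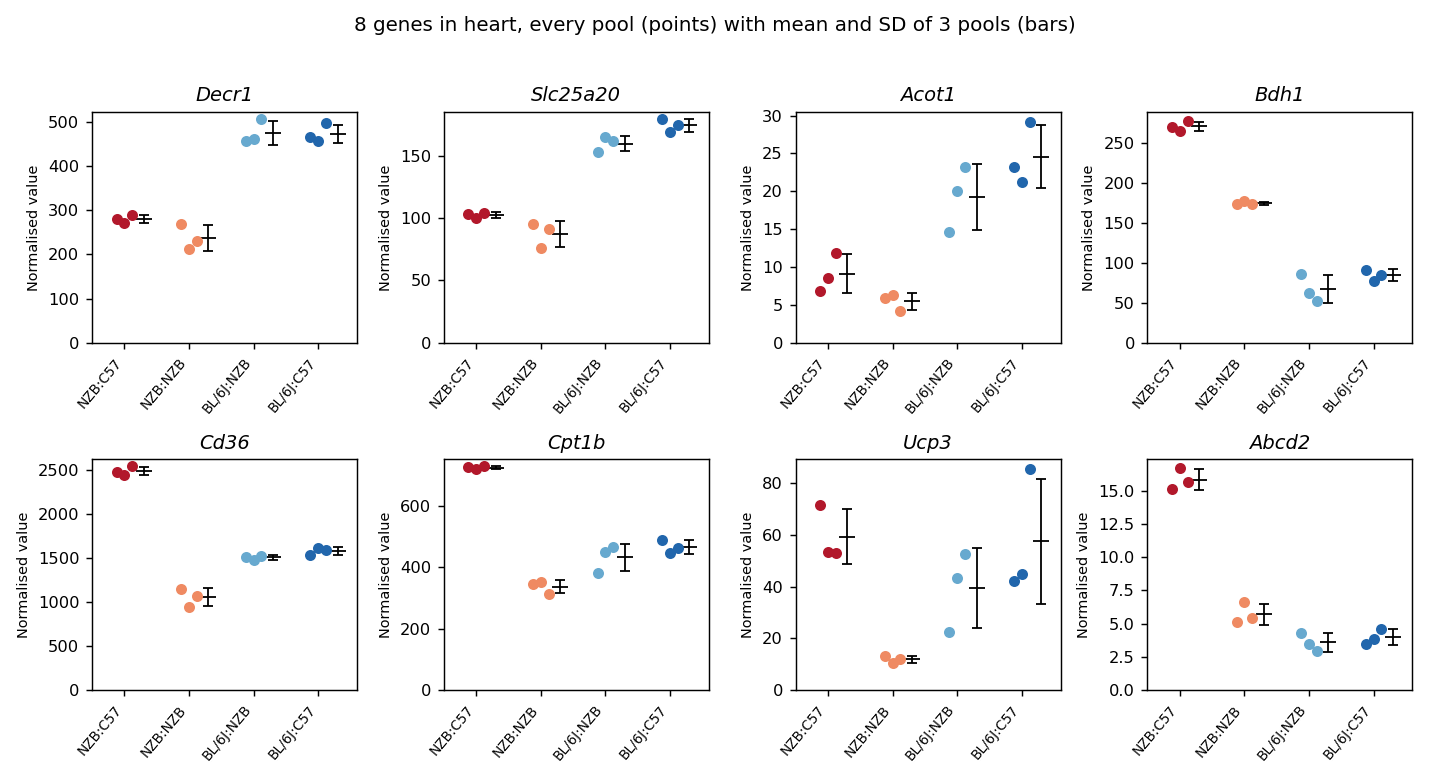
Normalised values of 8 of the genes in every heart pool (points, y axis from 0) by genotype (x axis), with the mean and SD of the 3 pools beside them. Decr1, Slc25a20 and Acot1 are lower and Bdh1 is higher in both groups of the NZB nucleus than in both groups of the BL/6J nucleus. Cd36, Cpt1b and Abcd2 are highest in NZB:C57 hearts and Ucp3 is lowest in NZB:NZB hearts. With library totals Cd36 and Cpt1b were not called in NZB:C57 against BL/6J:C57 hearts (0.07 and 0.05).

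Other genes of the same pathways were read from 5 lists of 123 genes in the table. In NZB:NZB against BL/6J:NZB hearts 42 of the 111 tested were lower and 8 higher. In NZB:C57 against BL/6J:C57 hearts 43 were lower and 15 higher. These counts and the values of other pathway genes below are under the authors' normalisation only. A list of 18 further genes was headed mitochondrial beta-oxidation but also held enzymes of other pathways, such as the peroxisomal Nudt19. Of these 18, 10 were lower and 0 higher in the first comparison and 10 lower and 1 higher in the second. Of 30 peroxisomal genes 10 and 11 were lower and 0 higher. Ech1, a dienoyl-CoA isomerase, had 637, 546 and 537 in NZB:NZB hearts and 1156, 1357 and 1428 in BL/6J:NZB hearts. Ech1 differed by -1.19 ± 0.09 on the log2 scale (SE, limma adjusted p = 1.9e-08). Pdk4, the PPAR target that shuts off pyruvate dehydrogenase, averaged 192 ± 54.8 in NZB:NZB hearts and 464 ± 86.4 in BL/6J:NZB hearts (SD, n = 3; log2 fold change -1.29 ± 0.22 SE, limma adjusted p = 0.00032). It averaged 327 ± 83.3 in NZB:C57 hearts and 923 ± 307 in BL/6J:C57 hearts (SD, n = 3; log2 fold change -1.47 ± 0.22 SE, limma adjusted p = 4.4e-05). Fabp3, the heart fatty acid binding protein, was higher in NZB:C57 than in BL/6J:C57 hearts (log2 fold change 1.25 ± 0.08 SE, limma adjusted p = 1.6e-09), and was at -0.20 (limma adjusted p = 0.09) in NZB:NZB against BL/6J:NZB hearts. Lpl, which frees fatty acids from lipoproteins, was lower in NZB:NZB than in BL/6J:NZB hearts. For Lpl the log2 fold change was -0.73 ± 0.08 (SE, limma adjusted p = 3.3e-06). Oxct1, the ketone-using transferase, and the coactivator Ppargc1a were not called in NZB:NZB against BL/6J:NZB hearts, with log2 fold changes of -0.02 and -0.09 (limma adjusted p = 0.89 and 0.49).

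As 28 and 26 of the 37 genes tested were lower in the 2 nuclear comparisons in heart, the promoters of the 38 genes (250 bases before to 50 after the start, RefSeq, GRCm38.p6) were searched on both strands for the PPAR response element (AGGTCA, any 1 base, AGGTCA) and for its half-site AGGTCA. Each full element would also count as 2 half-sites. Of the 38 genes, 31 had 34 promoters in the table used. None of the 34 held the full element, which 0.0396% of all 32851 promoters held, and 7 (20.6%) held the half-site, against 16.3% of all promoters. The 6 genes with a half-site were Acadm, Acadvl, Cd36, Cpt1a, Plin5 and Ucp3, and a match of letters is not a site of binding. The promoters of 3 genes that were lower in both nuclear heart comparisons (Acadm, Acadvl, Plin5) are given below. So are those of Cd36, highest in NZB:C57 hearts under the authors' normalisation, and of Ucp3, lowest in NZB:NZB hearts. Each is given 5′ to 3′ on the gene's strand, with the half-site AGGTCA or its reverse complement in capitals.
Acadm (chr3:153944594-153944893, minus strand): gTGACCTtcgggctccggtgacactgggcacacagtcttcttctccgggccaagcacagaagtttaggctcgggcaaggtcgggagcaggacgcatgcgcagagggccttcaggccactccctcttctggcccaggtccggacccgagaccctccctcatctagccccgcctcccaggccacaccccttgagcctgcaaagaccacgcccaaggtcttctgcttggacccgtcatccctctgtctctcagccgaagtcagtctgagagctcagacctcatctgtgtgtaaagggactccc
Acadvl (chr11:70015379-70015678, minus strand): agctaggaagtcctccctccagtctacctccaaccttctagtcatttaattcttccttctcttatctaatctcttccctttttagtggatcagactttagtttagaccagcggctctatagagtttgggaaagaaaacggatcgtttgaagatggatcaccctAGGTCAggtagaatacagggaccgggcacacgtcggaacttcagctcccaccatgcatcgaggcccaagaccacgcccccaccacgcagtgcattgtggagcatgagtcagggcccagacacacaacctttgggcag
Plin5 (chr17:56117499-56117798, minus strand): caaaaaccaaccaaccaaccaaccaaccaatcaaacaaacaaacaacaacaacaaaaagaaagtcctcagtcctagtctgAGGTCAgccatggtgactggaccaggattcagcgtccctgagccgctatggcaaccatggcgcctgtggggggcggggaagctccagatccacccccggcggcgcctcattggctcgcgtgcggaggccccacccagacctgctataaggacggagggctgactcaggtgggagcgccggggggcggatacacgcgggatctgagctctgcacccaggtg
Cd36 (chr5:17835847-17836146, minus strand): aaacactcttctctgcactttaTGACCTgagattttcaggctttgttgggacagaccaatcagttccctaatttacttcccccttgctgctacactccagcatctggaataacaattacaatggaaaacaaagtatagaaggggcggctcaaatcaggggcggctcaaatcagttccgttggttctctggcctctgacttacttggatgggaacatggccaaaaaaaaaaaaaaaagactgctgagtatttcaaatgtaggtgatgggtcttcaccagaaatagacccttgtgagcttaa
Ucp3 (chr7:100472741-100473040, plus strand): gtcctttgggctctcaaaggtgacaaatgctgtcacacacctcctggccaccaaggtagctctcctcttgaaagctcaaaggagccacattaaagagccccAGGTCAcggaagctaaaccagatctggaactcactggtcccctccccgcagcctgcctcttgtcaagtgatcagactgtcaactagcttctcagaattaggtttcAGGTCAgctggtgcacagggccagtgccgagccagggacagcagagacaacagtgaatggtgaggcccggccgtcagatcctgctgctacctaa
The half-site began at base -249 from the start in Acadm, -87 in Acadvl, -170 in the Plin5 promoter shown and -228 in Cd36, and Ucp3 held 2, the first at -149. In Cpt1a, which was lower in NZB:C57 than in BL/6J:C57 hearts, it began at -94. The second of 2 Plin5 promoters in the table held it at base 14 after the start.

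In liver fewer of the 38 genes were called between the nuclear genomes, and among them were 4 of the 5 peroxisomal genes in each comparison. In NZB:NZB against BL/6J:NZB livers 12 of the 37 genes tested were lower and 3 higher, where 24.9% of 13159 genes were called (11.9% lower, 12.9% higher). In NZB:C57 against BL/6J:C57 livers 16 were lower and 1 higher, where 27.9% were called (14.8% lower, 13.1% higher), and the medians were -0.18 and -0.34. The same 11 genes were lower in both, which is 91.7% of 12 and 68.75% of 16, an overlap that was not counted over all genes. Leaving out BL/6J:NZB liver pool 2 took the first count of 15 calls down to 9. Library totals gave 9 lower and 4 higher in the first comparison and 17 and 1 in the second.

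Pex11a had 53.4, 55.4 and 56.2 in NZB:NZB livers and 116, 123 and 104 in BL/6J:NZB livers (log2 fold change -1.04 ± 0.10 SE, limma adjusted p = 3.5e-06), and 56.0, 54.7 and 56.0 in NZB:C57 livers and 126, 98.6 and 115 in BL/6J:C57 livers. Pex11a differed by -1.01 ± 0.10 on the log2 scale (SE, limma adjusted p = 4.1e-06). All 6 livers of the NZB nucleus were close together, and all 6 of the BL/6J nucleus lay far above them. Eci1, an enoyl-CoA isomerase of mitochondria, had 81.5, 85.8 and 97.2 in NZB:NZB livers and 151, 158 and 173 in BL/6J:NZB livers. For Eci1 the log2 fold change was -0.86 ± 0.13 (SE, limma adjusted p = 0.00022). Acaa1b had 569, 675 and 748 in NZB:NZB livers and 1225, 1474 and 1451 in BL/6J:NZB livers. Acaa1b differed by -1.06 ± 0.18 on the log2 scale (SE, limma adjusted p = 0.00059). Ehhadh had 412, 420.5 and 440.4 in NZB:NZB livers and 559, 613 and 555 in BL/6J:NZB livers. For Ehhadh the log2 fold change was -0.44 ± 0.09 (SE, limma adjusted p = 0.0037). In each the NZB pools lay below all BL/6J pools. Vnn1 had 11.6, 18.6 and 20.7 in NZB:C57 livers and 46.9, 41.6 and 59.3 in BL/6J:C57 livers (log2 fold change -1.5 ± 0.19 SE, limma adjusted p = 5.6e-05), and 22.5, 28.7 and 24.6 in NZB:NZB livers and 48.2, 41.1 and 53.9 in BL/6J:NZB livers. Vnn1 differed by -0.89 ± 0.19 on the log2 scale (SE, limma adjusted p = 0.0038). Slc25a20 was again lower, at 80.4, 87.1 and 70.3 in NZB:C57 livers and 155, 117 and 136 in BL/6J:C57 livers. For Slc25a20 the log2 fold change was -0.77 ± 0.11 (SE, limma adjusted p = 0.00012).

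Bdh1 was higher in livers of the NZB nucleus, as in hearts, with 456, 549.5 and 473 in NZB:NZB livers and 212, 251 and 302 in BL/6J:NZB livers. Bdh1 differed by 0.96 ± 0.15 on the log2 scale (SE, limma adjusted p = 0.00038). In NZB:C57 against BL/6J:C57 livers its log2 fold change was 0.53 ± 0.15 (SE; limma adjusted p = 0.019), a call lost without BL/6J:C57 liver pool 1 or 2 or NZB:C57 liver pool 2 (0.45, 0.43 and 0.48). Abcd2 had 33.4, 42.9 and 34.8 in NZB:NZB livers and 5.13, 7.99 and 9.0 in BL/6J:NZB livers (log2 fold change 2.21 ± 0.38 SE, limma adjusted p = 0.00077). With C57 mtDNA it had 7.05, 6.79 and 8.56 in NZB:C57 livers and 2.82, 15.0 and 10.3 in BL/6J:C57 livers, with overlap. For Abcd2 the log2 fold change was -0.07 ± 0.38 (SE, limma adjusted p = 0.91). Cd36 and Ucp2 were lower in NZB:C57 than in BL/6J:C57 livers, Cd36 at a log2 fold change of -1.03 ± 0.12 (SE; adjusted p = 2.1e-05 with limma) and Ucp2 at -0.91 ± 0.11 (adjusted p = 4.3e-05 with limma). They were not called in NZB:NZB against BL/6J:NZB livers (0.20 and -0.06). Ppard was lower in NZB:NZB livers (log2 fold change -1.60 ± 0.47 SE, limma adjusted p = 0.022), but its call was lost without any NZB:NZB liver pool (-1.62 to -1.60) or without BL/6J:NZB liver pool 1 or 2 (-1.5 and -1.52). Across both tissues and both mtDNA types, 7 genes were lower with the NZB nucleus in all 4 comparisons (not counted over all genes), Slc25a20, Cpt2, Eci1, Etfa, Etfb, Pex11a and Plin5. The calls of Etfa and Etfb in NZB:NZB against BL/6J:NZB livers were the weakest of these (-0.27 and -0.37, limma adjusted p = 0.041 and 0.048). Both were lost without any one of the 6 pools compared (-0.31 to -0.24 for Etfa, -0.42 to -0.29 for Etfb), and library totals ended both (-0.16 and -0.25) and that of Cpt2 (-0.21). In the same livers Cpt2 was not called without BL/6J:NZB pool 2 or NZB:NZB pool 1 or 3 (-0.32 to -0.28), nor Plin5 without BL/6J:NZB pool 2 (-0.56). Eci1 lost its call in NZB:NZB against BL/6J:NZB hearts as given above, and in NZB:C57 against BL/6J:C57 hearts without BL/6J:C57 pool 1 or 2 or NZB:C57 pool 1 or 3 (-0.24 to -0.22). Slc25a20 and Pex11a kept all 4 calls under each alternative that was run. Whether the nuclear difference itself differs between heart and liver was not tested.

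Of the other pathway genes, 33 of 119 tested were lower and 16 higher in NZB:NZB against BL/6J:NZB livers, and 31 lower and 15 higher in NZB:C57 against BL/6J:C57 livers. Peroxisomal genes accounted for 16 and 12 of the lower ones, out of 33. Nudt19, a peroxisomal hydrolase of coenzyme A from another of the lists, had 12.2, 12.2 and 13.7 in NZB:NZB livers and 45.6, 40.1 and 51.1 in BL/6J:NZB livers. Nudt19 differed by -1.76 ± 0.11 on the log2 scale (SE, limma adjusted p = 3.7e-08). The PPARα target Cyp4a14, a fatty acid omega-hydroxylase, was higher in both comparisons (0.84 and 1.31 on the log2 scale, limma adjusted p = 0.0067 and 0.00023). Fabp1, the liver fatty acid binding protein, was not called in either, with log2 fold changes of 0.01 and 0.32 (limma adjusted p = 0.99 and 0.31). Lpl was higher in NZB:NZB livers (489.9, 385 and 417) than in BL/6J:NZB livers (100.1, 69.3 and 76.4; log2 fold change 2.39 ± 0.19 SE, limma adjusted p = 5.9e-07). All 13 cardiomyocyte markers were higher in livers of the NZB nucleus in both comparisons, with the sums given above. The heart gene Fabp3 had 7.22, 2.75 and 2.43 in NZB:NZB livers and 0 in all 3 BL/6J:NZB livers. Hepatocyte markers were 2 higher and 4 lower of 19 in NZB:NZB livers and 8 higher and 1 lower in NZB:C57 livers. Endothelial markers were 6 higher and 0 lower of 14 in NZB:NZB against BL/6J:NZB livers, with 0 called in NZB:C57 against BL/6J:C57 livers. Fibroblast markers were 7 higher and 0 lower of 13 in the first pair and 1 higher and 0 lower in the second, and macrophage markers 0 higher and 2 lower of 12 in the first and 1 higher and 6 lower in the second. The 19 liver genes with female bias were 17 higher and 1 lower in NZB:NZB against BL/6J:NZB livers and 5 higher and 1 lower in NZB:C57 against BL/6J:C57 livers. The 20 with male bias were 2 higher and 14 lower in the first pair of groups and 6 higher and 13 lower in the second. Their part in these results was not tested.

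**Figure D4:**
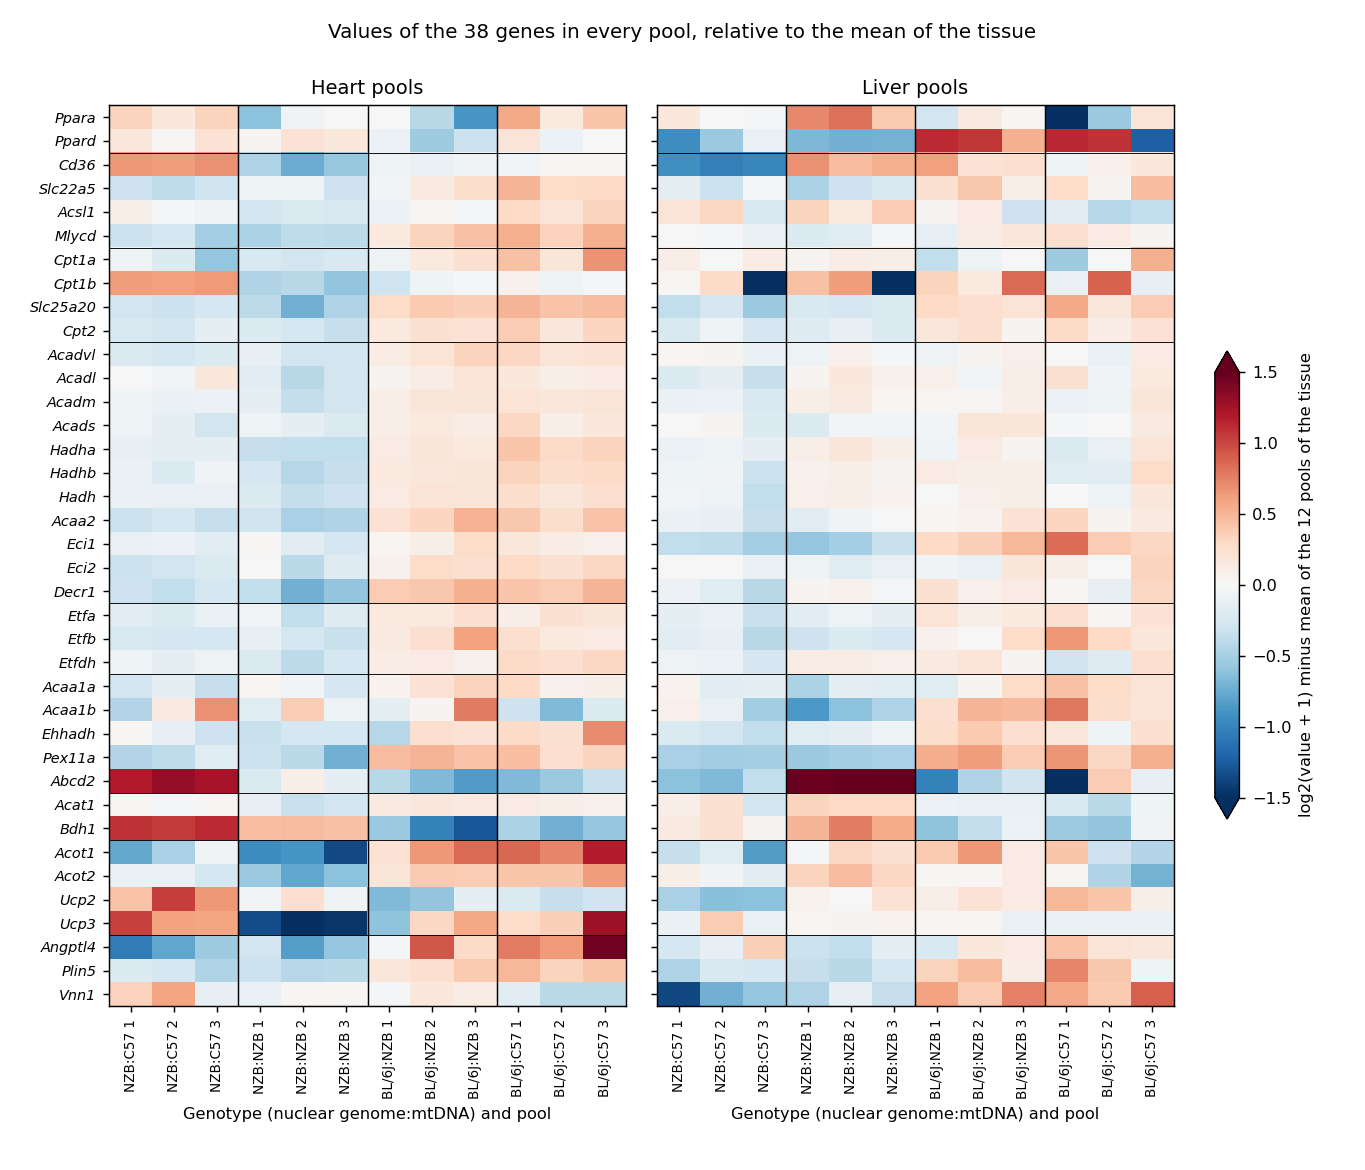
Values of the 38 genes (y axis, by role) in each of the 12 heart pools (left) and 12 liver pools (right), as log2(value + 1) minus the mean of the 12 pools of that tissue. Red is above and blue below that mean, and columns run from NZB:C57 to BL/6J:C57. In heart the 6 columns of the NZB nucleus are mostly blue and those of the BL/6J nucleus mostly red, with Bdh1 the other way round, and Cd36, Cpt1b and Ucp3 red in NZB:C57 but not in NZB:NZB pools. With library totals the NZB:C57 heart columns shift further to blue.

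With C57 mtDNA in place of its own on the NZB nucleus, the genes that were called were higher in heart and lower in liver, although in heart 4 of the calls held under both scalings. In NZB:C57 hearts 15 of the 37 genes tested were higher and 0 lower than in NZB:NZB hearts, where 15.9% of genes were called (13.0% higher, 2.89% lower). The median was 0.17, against 0.00 over all genes. All 4 thioesterase and uncoupling protein genes and both genes of ketone body metabolism were higher, as were 4 of 11 genes of mitochondrial beta-oxidation. Without NZB:C57 heart pool 1 or pool 3 the count was 9. With library totals, under which the median of all genes was at -0.65, 4 of the 37 genes were higher (Cd36, Cpt1b, Abcd2, Ucp3) and 27 lower. Of the 15, 10 turned negative.

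Cd36 had the values given above, 2485, 2449 and 2544 in NZB:C57 hearts against 1148, 944 and 1069 in NZB:NZB hearts (1.25 ± 0.08 on the log2 scale, limma adjusted p = 9.5e-10, and 0.54 with library totals). Cpt1b had 725, 719 and 731 in NZB:C57 hearts and 345, 352 and 312 in NZB:NZB hearts (1.11 ± 0.08 on the log2 scale, limma adjusted p = 6.8e-09, and 0.41 with library totals). The NZB:C57 pools of Cpt1b differed by little and were all far above the NZB:NZB pools. Ucp3 had 71.7, 53.4 and 53.0 in NZB:C57 hearts and 13.3, 10.4 and 12 in NZB:NZB hearts (2.22 ± 0.26 on the log2 scale, limma adjusted p = 4.3e-06, and 1.55 with library totals), which placed NZB:C57 hearts in the range of the BL/6J hearts. Abcd2 had 15.1, 16.7 and 15.7 in NZB:C57 hearts and 5.08, 6.61 and 5.41 in NZB:NZB hearts (1.33 ± 0.15 on the log2 scale, limma adjusted p = 3.4e-06, and 0.71 with library totals). These 4 genes remained higher under both scalings.

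The other calls rested on smaller changes and did not hold with library totals. Bdh1 had 271, 266 and 278 in NZB:C57 hearts and 175, 177 and 174 in NZB:NZB hearts (0.63 ± 0.12 on the log2 scale, limma adjusted p = 0.0011, and -0.07 with library totals). Acot2 had 42.9, 42.8 and 38 in NZB:C57 hearts and 30.9, 26.3 and 29.6 in NZB:NZB hearts (0.50 ± 0.09 on the log2 scale, limma adjusted p = 0.00079, and -0.19 with library totals). Ucp2 had 87.0, 134 and 101 in NZB:C57 hearts and 62.8, 76.6 and 61.9 in NZB:NZB hearts (0.65 ± 0.14 on the log2 scale, limma adjusted p = 0.003, and -0.04 with library totals). The pools did not overlap in these 3, which were slightly negative with library totals, where the median of all genes was at -0.65. Acadl had 912, 885 and 1023 in NZB:C57 hearts and 817, 682 and 749.7 in NZB:NZB hearts (0.33 ± 0.08 on the log2 scale, limma adjusted p = 0.007, and -0.38 with library totals). The calls of Acat1, Acsl1, Hadha, Hadhb, Etfdh and Decr1 lay between 0.20 and 0.25, and all were negative with library totals. Each of these 6 calls, and that of Acadl, was also lost without at least 1 single pool, at 0.15 to 0.27. Acot1 was at 0.63 (limma adjusted p = 0.034; 0.02 with library totals), a call lost without NZB:C57 heart pool 2 or 3 (0.65 and 0.44) or NZB:NZB heart pool 3 (0.48). All 13 cardiomyocyte, 10 of 13 endothelial, 10 of 13 fibroblast, 3 of 9 macrophage and 1 of 7 adipocyte markers were higher in NZB:C57 hearts and 0 lower, and their part in these results was not tested.

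Across the 37 genes, the change in NZB:C57 against NZB:NZB hearts ran with the heart over liver difference of BL/6J:C57 mice, which shares no library with it (r = 0.50, rho = 0.38, across genes, which are not independent replicates); over all 13803 genes r was 0.46, close to that of the 37. The 10 members that were more than 1 log2 unit higher in heart than in liver had a median change of 0.28, the 20 within 1 unit of 0.08, and the 7 more than 1 unit lower of 0.09.

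In livers the same change of mtDNA gave 4 lower and 0 higher of the 37 genes, where 8.09% of genes were called (4.44% lower, 3.65% higher). Cd36 had 14.5, 13.4 and 13.8 in NZB:C57 livers and 46.0, 39.2 and 41.3 in NZB:NZB livers. For Cd36 the log2 fold change was -1.53 ± 0.12 (SE, limma adjusted p = 9.6e-07). Abcd2 had 7.05, 6.79 and 8.56 in NZB:C57 livers and 33.4, 42.9 and 34.8 in NZB:NZB livers. For Abcd2 the log2 fold change was -2.17 ± 0.38 (SE, limma adjusted p = 0.0024). Ucp2 had 20.9, 18.8 and 19.1 in NZB:C57 livers and 31, 29.9 and 34.6 in NZB:NZB livers. Ucp2 differed by -0.67 ± 0.11 on the log2 scale (SE, limma adjusted p = 0.0017). For all 3 the groups were far apart, and for Abcd2 it was the NZB:NZB livers that differed from all other livers. Acadl was the fourth, with 184, 191 and 166 in NZB:C57 livers and 219, 237 and 221 in NZB:NZB livers (log2 fold change -0.32 ± 0.09 SE, limma adjusted p = 0.047), and its call was lost without any of the 6 pools (-0.37 to -0.27). With library totals, under which the median of all genes was at -0.22, 20 were lower and 0 higher. In the same comparison hepatocyte markers were 9 higher and 0 lower of 19, while endothelial markers were 0 higher and 7 lower of 14 and fibroblast markers 0 higher and 8 lower of 13. Macrophage markers were 1 higher and 4 lower of 12 (sums of 376 to 515 in NZB:C57 and 425 to 563 in NZB:NZB livers). The 19 liver genes with female bias summed to 195 to 472 in NZB:C57 livers and 1892 to 2418 in NZB:NZB livers, and the 20 with male bias to 20078 to 23581 in NZB:C57 livers and 7028 to 10008 in NZB:NZB livers, although all mice were labelled male. The part of these in the result was not tested. Of the other pathway genes 6 were higher and 6 lower of 119, among them Acox2, a peroxisomal oxidase of bile acid intermediates, with 113, 115 and 119 in NZB:C57 livers and 215, 213 and 228 in NZB:NZB livers (log2 fold change -0.91 ± 0.08 SE, limma adjusted p = 2.8e-06). Another was Cyp4a10, an omega-hydroxylase, with 1122, 1226 and 1182 in NZB:C57 livers and 449, 532 and 505 in NZB:NZB livers. For Cyp4a10 the log2 fold change was 1.25 ± 0.18 (SE, limma adjusted p = 0.00049).

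The difference between tissues was tested directly on the NZB nucleus. For 18 of the 38 genes the effect of C57 mtDNA was more positive in heart than in liver, and for 0 more negative, where 23.9% of genes were called (16.2% positive, 7.66% negative). The largest were Abcd2 at 3.50 ± 0.44 (log2, SE; limma adjusted p = 2.3e-06), Cd36 at 2.78 ± 0.13 (limma adjusted p = 7.7e-13) and Ucp2 at 1.33 ± 0.20 (limma adjusted p = 2.4e-05), leaving aside Ucp3, which was near 0 in liver and was called by neither edgeR nor DESeq2. With library totals, under which the median of all genes was at -0.41, 7 were positive and 11 negative. In heart, other pathway genes higher in NZB:C57 than in NZB:NZB mice numbered 16 of 111, with 1 lower, and included Fabp3, with 4753, 4684 and 5081 in NZB:C57 hearts and 2108, 1768 and 1764 in NZB:NZB hearts (log2 fold change 1.37 ± 0.08 SE, limma adjusted p = 9.2e-10), and Oxct1. Oxct1 differed by 0.69 ± 0.07 on the log2 scale (SE, limma adjusted p = 1.4e-06). These results of other pathway genes rest on the NZB:C57 libraries that stand apart and are given under the authors' normalisation only.

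**Figure D5:**
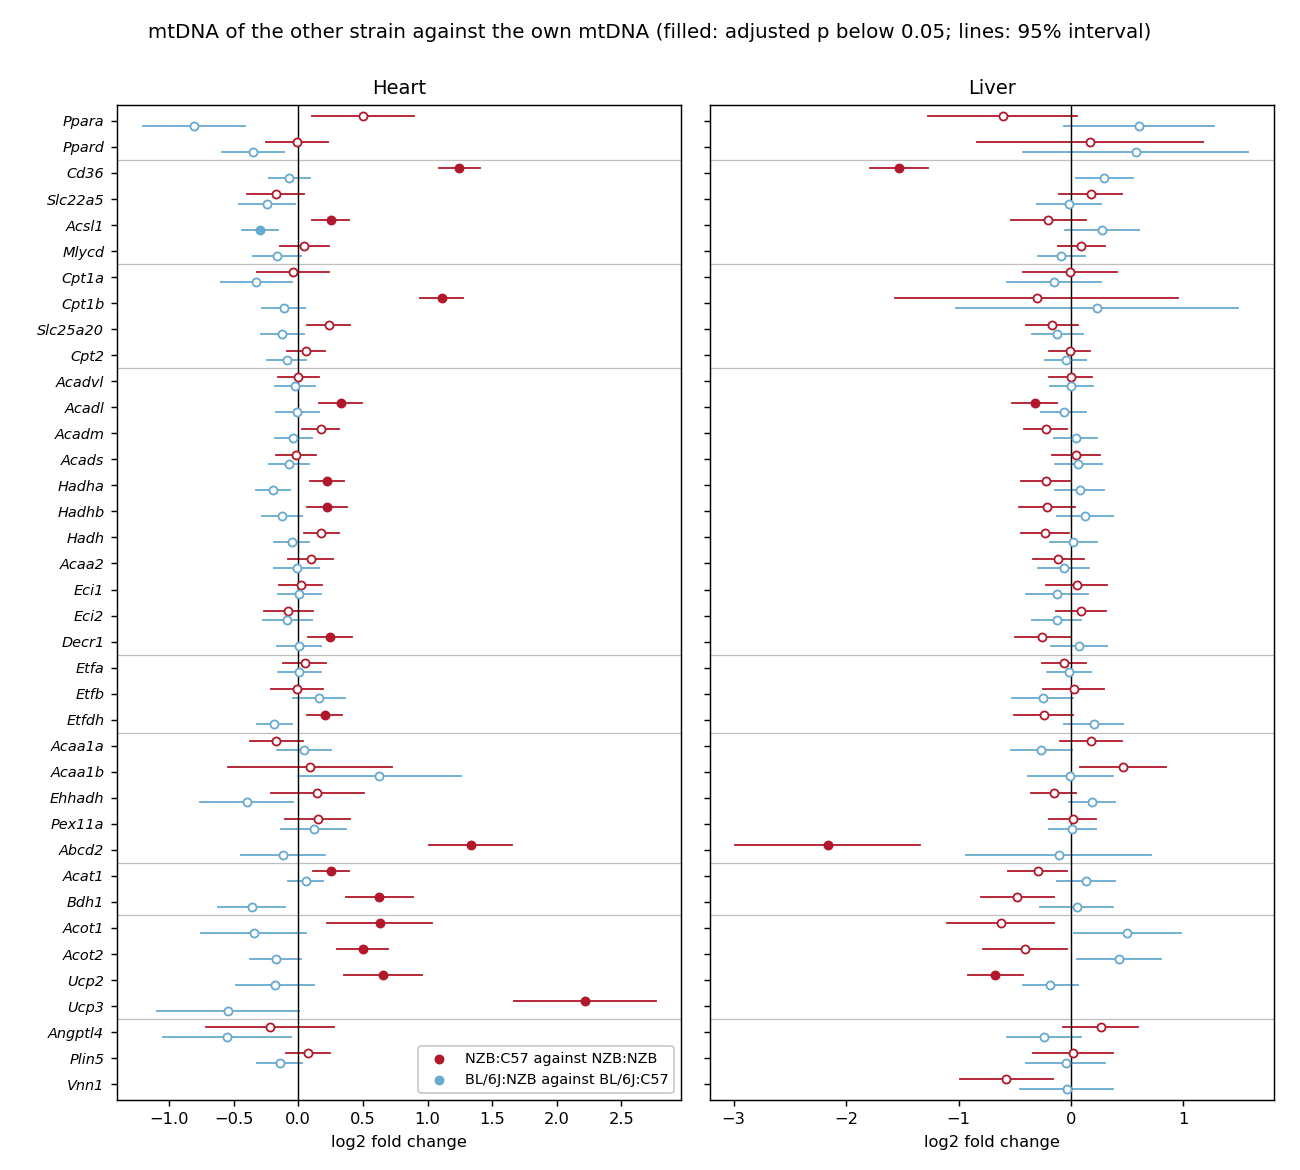
log2 fold change of mtDNA from the other strain over the strain's own mtDNA (x axis) for each of the 38 genes (y axis), in heart (left) and liver (right), on the NZB nucleus in dark red and the BL/6J nucleus in blue, with the 95% interval of the limma fit and filled points past an adjusted p of 0.05. Cd36, Abcd2 and Ucp2 are to the right in heart and to the left in liver on the NZB nucleus, and Acsl1 in heart is the one filled blue point. With library totals Ucp2 and 9 other filled dark red points in heart fall left of 0.

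With NZB mtDNA on the BL/6J nucleus, 1 of the genes was called in heart and 0 in liver. In livers 0 of the 37 genes were called in BL/6J:NZB against BL/6J:C57 mice with limma, where 1 of 13159 genes (0.00760%) was, and edgeR and DESeq2 also called 0. At an unadjusted p under 0.05 there were 3, Cd36, Acot1 and Acot2, at 0.30, 0.50 and 0.43. These are not calls, and the share of all genes at that p is not given here. The 95% interval of the liver difference ran, for Cpt1a, from -0.57 to 0.27 and, for Acadm, from -0.15 to 0.23 on the log2 scale. In hearts 1 gene was lower and 0 higher, where 0.935% of genes were called (0.507% lower, 0.427% higher). Acsl1, the main long-chain acyl-CoA synthetase of heart and liver, had 747, 807 and 783 in BL/6J:NZB hearts and 972, 903 and 997 in BL/6J:C57 hearts. For Acsl1 the log2 fold change was -0.30 ± 0.07 (SE, limma adjusted p = 0.048). The pools did not overlap, but the call was lost without any BL/6J:NZB heart pool (-0.32 to -0.27) or without BL/6J:C57 heart pool 1 or 3 (-0.29 and -0.27), and without the NZB:C57 libraries in the fit (-0.30).

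Ppara had 25.9, 19.2 and 13.7 in BL/6J:NZB hearts and 39.0, 28.8 and 35.1 in BL/6J:C57 hearts, a log2 fold change of -0.81 ± 0.19 (SE) that just missed the threshold (limma adjusted p = 0.05). Its highest BL/6J:NZB pool was below its lowest BL/6J:C57 pool. In all, 10 of the 37 genes had an unadjusted p under 0.05 in hearts, but the share of all genes at that p is not given here. The median over the 37 genes was -0.12 (0.00 over all genes). edgeR called 2 and DESeq2 3, all lower. Single pools moved the count, which was 0 without BL/6J:C57 heart pool 1 or 3 or BL/6J:NZB heart pool 2 or 3, and 2 without BL/6J:C57 heart pool 2 or BL/6J:NZB heart pool 1. Of the other pathway genes 1 was higher and 2 lower of 111, Fabp4 (log2 fold change 0.50 ± 0.10 SE, limma adjusted p = 0.042), Lpin1 (log2 fold change -0.48 ± 0.09 SE, limma adjusted p = 0.03) and Ncoa2. Ncoa2 differed by -0.45 ± 0.09 on the log2 scale (SE, limma adjusted p = 0.042). In these hearts adipocyte markers were 1 higher and 0 lower of 7, the largest difference being 0.50, as for Fabp4. Their sums were 400 to 562 in BL/6J:NZB and 310 to 369 in BL/6J:C57 hearts. Cardiomyocyte markers were 0 higher and 1 lower of 13, and endothelial markers 1 higher and 0 lower of 13. Of fibroblast, macrophage and hepatocyte markers 0 were called. The part of these lists in this result was not tested. Pdk4 had 364, 514 and 514 in BL/6J:NZB hearts and 711, 784 and 1275 in BL/6J:C57 hearts (-0.96 on the log2 scale, limma adjusted p = 0.05). The difference between heart and liver in the effect of NZB mtDNA was not called for any of the 38 genes with limma. At an unadjusted p under 0.05 there were 9, again without the share of all genes at that p. Of all genes 0.0735% were called (0.0534% lower). edgeR also called 0 of the 38 and DESeq2 called 4, and with limma 1 was called without BL/6J:C57 liver pool 1 and 4 without pool 3.

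The effect of non-matching mtDNA was taken as the mean over the 2 nuclear genomes in a tissue, so a call does not show a change on both. It was called for 3 of the 37 genes in liver, all lower (2.49% of genes called, 1.82% higher and 0.669% lower). It was called for 5 of 37 in heart, all higher (11.2% of genes called, 9.81% higher and 1.42% lower). In liver these were Cd36 (-0.62 ± 0.08), Ucp2 (-0.43 ± 0.08) and Abcd2 (-1.14 ± 0.27, a call lost without any one of 11 of the 12 pools, at -1.21 to -0.92). In heart these were Cd36 (0.59 ± 0.05), Cpt1b (0.50 ± 0.06), Abcd2 (0.61 ± 0.11), Ucp3 (0.84 ± 0.18) and Acat1 (0.15 ± 0.05) on the log2 scale with SE. The call of Acat1 was lost without any one of 10 of the 12 pools (0.13 to 0.16), with edgeR (0.15) and with the replicate block (0.15). Each had a called effect on the NZB nucleus and none on the BL/6J nucleus, where Cd36 was at -0.07, Cpt1b at -0.11, Abcd2 at -0.12 and Ucp3 at -0.54. With library totals the median of all genes was at -0.30 in heart, and 4 genes were higher and 28 lower. Cd36 was then at 0.25, Cpt1b at 0.16, Abcd2 at 0.30, Ucp3 at 0.52 and Acat1 at -0.18.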

How the data were processed

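Poly-A RNA from 24 pools (3 for each of 4 genotypes in heart and liver) was sequenced on a Genome Analyzer IIx, per the labels. Per the submitters' processing notes, the GRCm38 genome was used with Bowtie2 2.0.6 and RSEM 1.2.3, and the tools also included edgeR and cutadapt 1.2.1. Parameters and strand setting are not given in the sources used here. GRCm38 is the C57BL/6J genome, and how well reads of the NZB nucleus match it was not tested. The authors deposited 1 normalised value (unit signal) per gene and library. Within a library, 100% of the deposited values were whole multiples of 1 constant to within 0.01 reads, so that whole reads were recovered. A count test on those reads (edgeR 4.0.16, quasi-likelihood) called between 2 genes (BL/6J:NZB against BL/6J:C57 livers) and 11773 genes (hearts against livers of NZB:C57 mice).

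Where 3 or more libraries of those fitted reached a value of 1, a gene was tested on log2(value + 1) with limma 3.58.1 (trend, R 4.3.3), with Benjamini-Hochberg adjustment over all genes tested and a threshold of 0.05. Each tissue had a fit of its 12 libraries, and heart was set against liver over all 24 libraries together. The script was tested on simulated data with 200 genes changed 2-fold. It recovered 96.0% with 3 false calls in 13159 genes for BL/6J:NZB against BL/6J:C57 livers. For hearts of the same genotypes it recovered 100% with 11 false calls in 13803 genes. The changed genes were drawn from those of higher value and all genes had 1 common dispersion, so the power in the real pools was not measured. Alternatives were edgeR, DESeq2 1.42.0, library totals, other filters and pseudocounts, a replicate block, the groups compared alone, and each library left out; leaving the NZB:C57 libraries out of the fit was added after seeing the data. No 2 libraries of the same group were alike within sampling noise (lowest chi-square per degree of freedom 2.15), and libraries of different groups were not compared in this way.

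In each comparison the called genes whose pools did not overlap were named in order of p, up to 10 with every pool; a fixed set that included Ppara, Cd36, Cpt1a, Cpt1b, Acadm, Ehhadh, the Acaa1, Acot and Ucp pairs, Pex11a, Abcd2 and Vnn1 could be given in any comparison, and of other pathway genes up to 6 by smallest p and 10 fixed ones. Some of those other pathway genes are not reported here. The 38 genes, the lists and the tests were chosen with earlier results of these data known. Promoters came from RefSeq (GRCm38.p6).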

Additional observations from a re-analysis of the deposited data

Results flagged for a closer look

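In 26 cases an effect of mtDNA differed between nuclear genomes or between tissues by limma's test of the difference itself (adjusted p under 0.05 across all genes). The effect of non-matching mtDNA, as the mean over the 2 nuclear genomes, is also a test of whether the effect of C57 over NZB mtDNA differs between them. It was called in liver for Cd36 (-0.62), Ucp2 (-0.43) and Abcd2 (-1.14) on the log2 scale, where 2.49% of all genes were called. In heart it was called for Cd36 (0.59), Cpt1b (0.50), Abcd2 (0.61), Ucp3 (0.84) and Acat1 (0.15), where 11.2% of all genes were called. Acat1 in heart reversed with library totals (-0.18).

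On the NZB nucleus, the effect of C57 mtDNA in heart minus that in liver was called for 18 of the 38 genes, where 23.9% of all genes were called. It was largest for Abcd2 (3.50 on the log2 scale), Cd36 (2.78) and Ucp3 (2.20, from a gene near 0 in liver, and lost with edgeR and DESeq2, adjusted p = 0.50 and 0.22). It was 1.33 for Ucp2, 1.25 for Acot1, 1.11 for Bdh1 and 1.10 for Ppara, which was not called in either tissue alone. The call of Ppara (limma adjusted p = 0.0495) was lost with edgeR and DESeq2 (adjusted p = 0.064 and 0.072), a pseudocount of 0.25, either other filter, library totals (0.66), the replicate block and without any one of 10 of the 12 pools compared (0.91 to 1.19). The difference was 0.91 for Acot2, 0.87 for Vnn1, 0.65 for Acadl and 0.55 for Acat1. The others were Decr1 (0.50), Hadha (0.45), Etfdh (0.44), Hadhb (0.43), Hadh (0.41), Acadm (0.40) and Slc25a20 (0.40), of which all but Decr1 turned slightly negative with library totals. The calls of Vnn1, Slc25a20, Hadhb and Etfdh were lost with edgeR and without single pools.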

How the results depend on the processing

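Of 273 calls of single genes over the comparisons, 257 kept direction and call under edgeR, 268 under DESeq2, 269 with a pseudocount of 0.25, 260 with the replicate block, 264 with no filter, 270 with a filter of 10 and 225 with library totals, where 28 reversed. Reversed with library totals were, in NZB:C57 against NZB:NZB hearts, Acsl1 (-0.45), Acadl (-0.38), Hadha (-0.48), Hadhb (-0.48), Decr1 (-0.46), Etfdh (-0.50), Acat1 (-0.45), Bdh1 (-0.073), Acot2 (-0.19) and Ucp2 (-0.042), and Acat1 (-0.18) in the effect of non-matching mtDNA in heart. In hearts against livers they were Ppara (0.29), Acsl1 (0.56), Acaa2 (0.54) and Eci2 (0.42) in BL/6J:C57, Acaa2 (0.52) and Eci2 (0.39) in BL/6J:NZB, Mlycd (0.28), Eci2 (0.11) and Acat1 (0.11) in NZB:NZB, and Acat1 (0.20) and Bdh1 (0.034) in NZB:C57 mice. In heart minus liver on the NZB nucleus they were Slc25a20 (-0.055), Acadm (-0.066), Hadha (-0.014), Hadhb (-0.030), Hadh (-0.053) and Etfdh (-0.018). Library totals shift every gene of a comparison by about 1 amount, by construction.

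Counts of the 38 genes called that moved over 1.5 times were those in NZB:C57 against NZB:NZB livers (4; 20 with library totals, 7 with the groups compared alone), NZB:C57 against NZB:NZB hearts (15; 31 with library totals), the effect of non-matching mtDNA in heart (5; 32 with library totals), and heart minus liver on the BL/6J nucleus (0; 4 with DESeq2). In BL/6J:NZB against BL/6J:C57 hearts (1) there were 0 with no filter, library totals, the replicate block or the NZB:C57 libraries left out, 2 with a filter of 10, the groups compared alone or edgeR, and 3 with DESeq2. The cause was not tested. Leaving out single pools gave 9 to 13 calls in NZB:NZB against BL/6J:NZB livers, 0 to 2 in BL/6J:NZB against BL/6J:C57 hearts, 9 to 18 in NZB:C57 against NZB:NZB hearts and 0 to 4 in heart minus liver on the BL/6J nucleus; the other counts stayed within 1.5 times.

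Deviations of same-numbered libraries correlated between -0.12 and 0.13 in heart and between -0.16 and 0.15 in liver. Between heart and liver of 1 genotype they correlated between -0.03 and 0.13. Low correlations of this kind cannot exclude that same-numbered pools shared animals or batches. With the replicate number as a block the counts were 31 in NZB:NZB against BL/6J:NZB hearts, 31 in NZB:C57 against BL/6J:C57 hearts, 12 in NZB:C57 against NZB:NZB hearts, 13 and 17 in the liver comparisons of nuclear genomes and 3 in NZB:C57 against NZB:NZB livers.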

Other observations

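The 3 BL/6J:C57 livers differed among themselves in several of the genes, which were chosen here after their values were seen. Ppara had 28.0, 58.1 and 98.2 in pools 1 to 3, Ppard had 39.0, 37.6 and 6.81, and Cpt1a had 214, 309.7 and 449.6. Abcd2 had 2.82, 15.0 and 10.3 in the same pools. In NZB:C57 livers the 3 pools of Ppara had 95.7, 85.2 and 84.3 and those of Cpt1a 334, 311 and 337.

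The uncoupling proteins divided differently by heart group. Per kilobase, Ucp2 made up 44.8% ± 8.89 of Ucp2 and Ucp3 together in NZB:C57 hearts, 71.5% ± 4.58 in NZB:NZB hearts, 36.1% ± 7.40 in BL/6J:NZB hearts and 30.6% ± 8.11 in BL/6J:C57 hearts (SD, n = 3 pools). The pools of NZB:NZB hearts did not overlap with those of any other group.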
